A study of Canis lupus familiaris with 37 samples.

Results

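MHC class II molecules are cell surface proteins, each built from an alpha and a beta chain, that show peptides of engulfed proteins to CD4+ helper T cells. They are made by professional antigen-presenting cells, among them B cells, dendritic cells and macrophages, and in dogs resting T cells carry them as well. In canine B-cell lymphoma, the amount of MHC class II on the malignant cells is known as a marker of outcome. Besides the classical chains, the term MHC class II protein complex takes in partners that guide the loading of peptides.

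The 9 genes described here are the Ensembl identifiers that the study listed under that term, of 32704 genes in the count tables and of 15162 genes that passed the filter on low values. All 9 passed the filter. The study drew its list from genes it had called on these same samples in comparisons of T-cell lymphomas or T-cell lines with controls, so the levels against controls given here are a description and carry no test. Gene symbols could not be paired with the identifiers, and the order of identifiers says nothing of the chain each gene encodes. In the study's own lists, 7 of the 9 (ENSCAFG00000000803, ENSCAFG00000000812, ENSCAFG00000000814, ENSCAFG00000000819, ENSCAFG00000000848, ENSCAFG00000000896 and ENSCAFG00000018101) also stand under processing and presentation of peptide antigen. The other 2, ENSCAFG00000000806 and ENSCAFG00000032102, do not. Levels were not compared between genes, since no gene lengths were used.

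Poly-A RNA was sequenced from 37 canine samples, and the deposited values are read counts per gene. The controls were 4 non-neoplastic lymph nodes. The primary tumors were 12 multicentric B-cell lymphomas, 1 T-cell lymphoma and 3 intestinal lymphomas that flow cytometry left unclassified. These last 4 were fitted together as probable T-cell lymphomas. The 17 cell line samples comprised 5 of CLBL-1, a line from a canine diffuse large B-cell lymphoma, and 5 of CLBL-1M, a line re-derived from a tumor that CLBL-1 had formed in a mouse. They also comprised 1 sample of the B-cell line GL-1 and, of the T-cell lines, 2 samples of CL-1 and 4 of OSW. All lines grew in the same serum-containing medium, and each line stands for 1 source, so its replicates measure the spread of samples of that line only. CLBL-1 and CLBL-1M share their source.

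The samples held 1962722 to 4863730 gene reads each, with a median of 2942360. Reads on no gene made up most of each sample's total, from 68.0% in OSW replicate 1 to 82.9% in control replicate 4. Levels are CPM, gene counts scaled to a common library size after TMM normalization, and 3 counts represented 0.601 to 1.65 CPM depending on the sample. Intervals printed for single libraries are exact binomial intervals at 95% and cover counting error only. The labels conflict in places: the flow cytometry field disagreed with the titles for several samples, all 4 controls among them, and the CLBL-1 and CLBL-1M titles are exchanged in the names of the data. The source field of control replicate 4 names a T-cell line instead of a lymph node. Its share of reads on more than 1 gene, 0.476%, lay within the 0.363 to 0.549% of the cell lines and above the 0.0977 to 0.229% of the lymphomas and the other controls. Its median level over the 9 genes was 88.0% of the control median, and its lowest, for ENSCAFG00000000814, was 45.8%. Cell type labels could not be checked against marker genes, which were known by symbol only. In bulk samples, fewer cells of a type and less RNA per cell cannot be told apart.

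Taken as a median over the 9 genes, the level was near that of the controls in CLBL-1, CLBL-1M and most B-cell lymphomas, lower in the probable T-cell lymphomas, and lowest in OSW and GL-1. CL-1 kept 7 genes at 39.3% or more of the control median while the other 2 were at 3.27% or less. Single genes lay on both sides of the controls in the CLBL lines: the group median of ENSCAFG00000032102 was 207% of the control median in CLBL-1 and 190% in CLBL-1M, while that of ENSCAFG00000000814 was 50.9% and 45.6%. The median over the 9 genes, as a percentage of the control median, was 94.7 to 109.6% in the CLBL-1 samples, 91.7 to 104.9% in CLBL-1M and 35.8 to 135% in the B-cell lymphomas. In CL-1 it was 49.7% and 52.2%, in the T-cell lymphoma 25.9%, and in the intestinal lymphomas 7.77 to 18.4%. It was 0.335% in GL-1 and 0.194 to 0.294% in OSW.

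**Figure D1:**
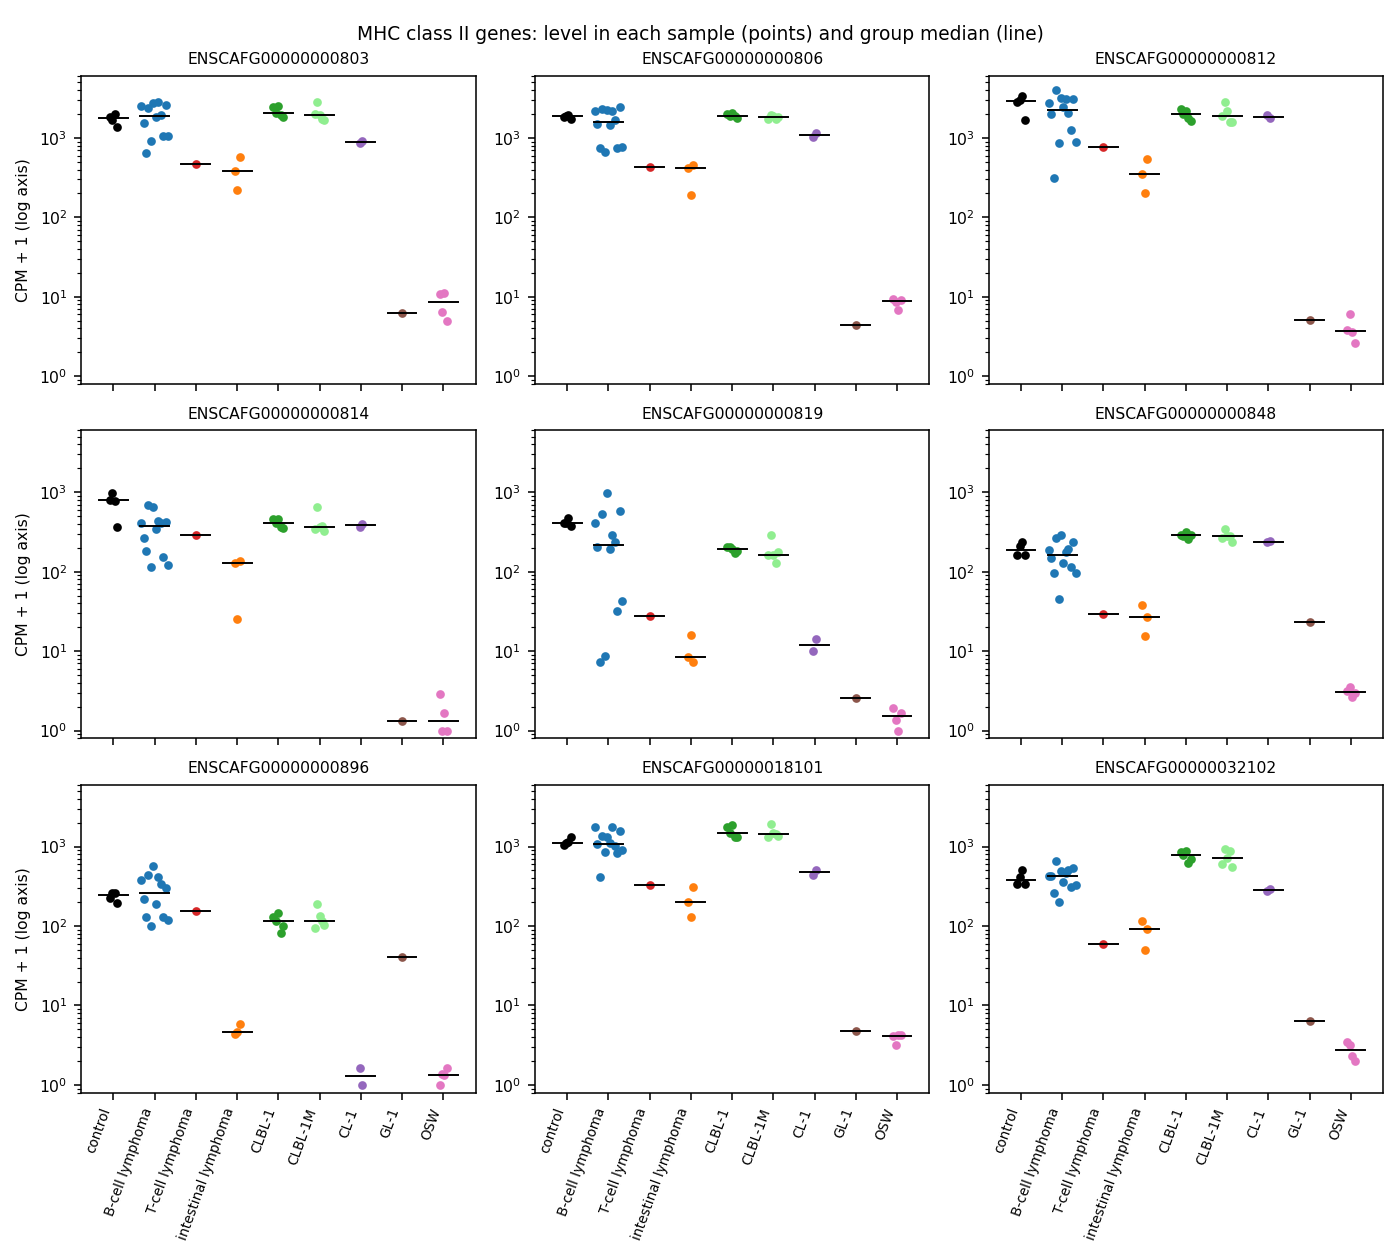
Level of each of the 9 MHC class II genes as CPM + 1 on a log axis, with 1 panel a gene, 1 point a sample and a line at the median of each group. The OSW points lie at or under 10.2 CPM in every panel. Both CL-1 points drop to that range for ENSCAFG00000000896, and CL-1 replicate 1 does so for ENSCAFG00000000819, at 8.97 CPM. GL-1 stays above it in the panels of ENSCAFG00000000848 and ENSCAFG00000000896.

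Ordered by group median, OSW ranked 8 or 9 of the 9 titled groups for every gene and the intestinal lymphomas ranked 6 or 7. The controls ranked 1 to 4, CLBL-1 and the B-cell lymphomas 1 to 5, and CLBL-1M 2 to 5. CL-1 had the widest range, from 3 for ENSCAFG00000000814 and ENSCAFG00000000848 to 9 for ENSCAFG00000000896. For ENSCAFG00000000896, CL-1 and OSW overlapped under 3 counts, so their order is not resolved. Controls, B-cell lymphomas, CLBL-1 and CLBL-1M overlapped with their neighbors among these groups for all 9 genes, except that for ENSCAFG00000000896 the controls lay above both CLBL lines, with the T-cell lymphoma between them. The intestinal lymphomas did not overlap with the group next below them for 7 genes. They overlapped with GL-1 for ENSCAFG00000000848 and with the T-cell lymphoma for ENSCAFG00000032102.

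In the joint fit, the median log2 fold-change of the 9 genes against controls was -8.58 in OSW (range -10.03 to -6.50), -8.24 in GL-1 (-11.004 to -2.57) and -2.35 in the probable T-cell lymphomas (-4.88 to -2.08). It was -0.93 in CL-1 (-9.43 to 0.32), -0.21 in the B-cell lymphomas (-1.06 to 0.24), 0.05 in CLBL-1 (-1.11 to 0.95) and -0.02 in CLBL-1M (-1.18 to 0.89). The same median over all 15162 genes lay between -0.23 and 0.09 in these 7 comparisons, which share the 4 controls. Size factors of the RLE method lowered the median of all genes against controls by 0.16 to 0.22 on the log2 scale, and with them the medians of CLBL-1 and CLBL-1M were -0.18 and -0.24. Relative to the median of all genes, the 9 genes stood 0.24 higher in CLBL-1 and 0.14 higher in CLBL-1M with either scaling.

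**Figure D2:**
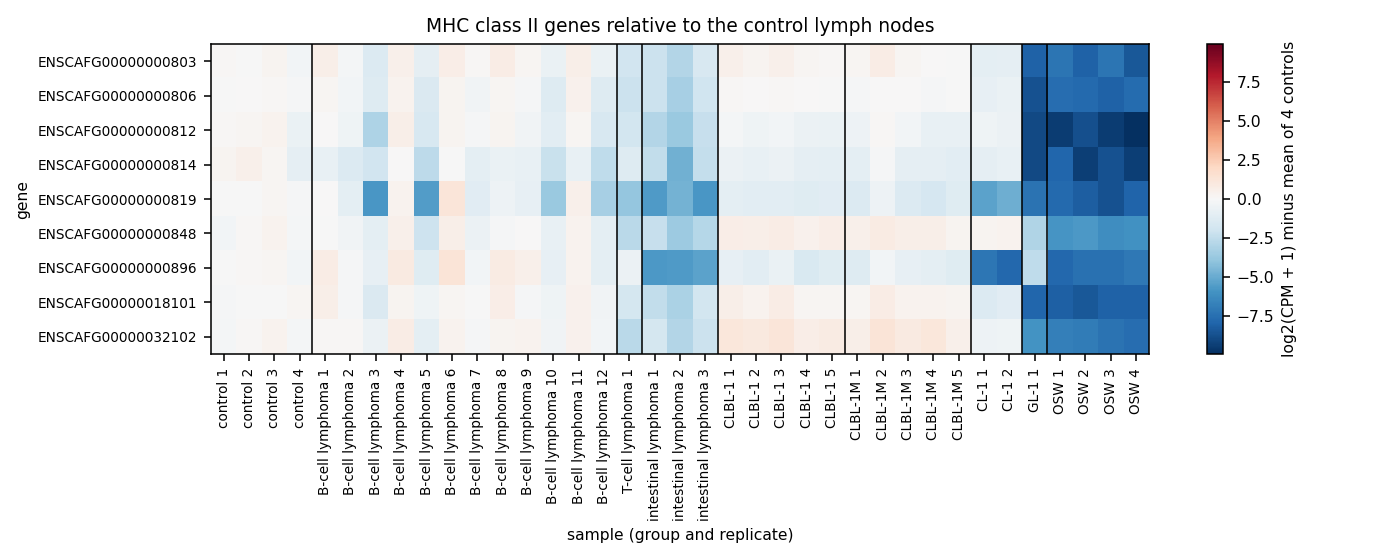
Difference of log2(CPM + 1) from the mean of the 4 controls for the 9 genes (rows) in all 37 samples (columns, ordered by group, with lines between groups). OSW and GL-1 are low in every row, GL-1 least so for ENSCAFG00000000848 and ENSCAFG00000000896, CL-1 is far lower in 2 rows than in the others, and ENSCAFG00000000819 is low in B-cell lymphomas 3, 5, 10 and 12.

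OSW and GL-1 had the 2 lowest group medians for 8 of the genes. For ENSCAFG00000000896, CL-1 and OSW were lowest, both under 3 counts in every sample and not to be ordered, and GL-1 lay above the intestinal lymphomas. All 9 genes were below every control in every OSW sample, as were 30.8% of all genes tested, and all 9 were below every control in GL-1, as were 36.3% of all genes. Without control replicate 4 both counts were again 9, beside 35.1% and 42.1% of all genes. The comparison was part of how the genes were chosen, and nothing is read from the counts.

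ENSCAFG00000000803 had 9.85, 5.43, 10.2 and 3.89 CPM in OSW replicates 1 to 4 and 5.31 CPM in GL-1 (interval 3.09 to 8.503), against 1839, 1669, 2018 and 1387 CPM in the controls. ENSCAFG00000000812 had 2.77, 5.07, 2.63 and 1.62 CPM in OSW and 4.06 CPM in GL-1, against 2842, 3016, 3322 and 1701 CPM in the controls. For both genes OSW and GL-1 overlapped, and each lay far under the lowest control.

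ENSCAFG00000000814 was at the limit of detection. It had 6, 0, 2 and 0 counts in the OSW samples and 1 count in GL-1, which is 0.312 CPM with an interval of 0.00791 to 1.74. Its control levels were 807, 969.8, 776 and 362 CPM. ENSCAFG00000000819 had 3, 1, 0 and 2 counts in OSW and 5 counts in GL-1 (1.56 CPM, interval 0.507 to 3.65), against 403, 406, 466.5 and 374 CPM in the controls.

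For 3 genes the counting interval of GL-1 lay above the measured level of all 4 OSW samples. ENSCAFG00000000848 had 71 counts in GL-1, or 22.2 CPM (interval 17.3 to 27.98), which was 12.04% of the control median. In OSW it had 5 to 7 counts a sample, or 1.64 to 2.54 CPM. ENSCAFG00000000896 had 126 counts in GL-1, or 39.4 CPM (interval 32.8 to 46.9), which was 16.3% of the control median. In OSW it had 0 to 2 counts a sample, at most 0.648 CPM. ENSCAFG00000032102 had 17 counts in GL-1, or 5.31 CPM (interval 3.09 to 8.503), which was 1.41% of the control median, and 0.972 to 2.46 CPM in OSW. For this gene the counting interval of OSW replicate 1 reached 4.85 CPM and so overlapped that of GL-1. GL-1 has 1 sample and so no replicate spread. The 7 genes other than ENSCAFG00000000848 and ENSCAFG00000000896 were at 0.03945 to 1.41% of the control median in GL-1.

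CL-1 differed from the other T-cell line in keeping most of the genes. Of the 9, 6 were below every control in both samples, beside 38.4% of all genes tested, and 8 without control replicate 4, beside 43.4%. ENSCAFG00000000848 was outside both counts, at 233 and 243 CPM, against 159, 206, 233 and 162 CPM in the controls. ENSCAFG00000000812, at 1912 and 1777 CPM, and ENSCAFG00000000814, at 365 and 400.1 CPM, were outside the first count, since they lay above control replicate 4 at 1701 and 362 CPM. ENSCAFG00000000803 had 872 and 916 CPM, 49.7% and 52.2% of the control median. ENSCAFG00000000806 had 1038 and 1145 CPM, against 1811, 1905, 1961 and 1723 CPM in the controls. ENSCAFG00000018101, which the study also listed under T cell activation, had 439.6 and 510.03 CPM, against 1039.7, 1106, 1131 and 1307 CPM in the controls.

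The 2 genes that CL-1 lost were ENSCAFG00000000896 and ENSCAFG00000000819. ENSCAFG00000000896 had 2 and 0 counts, which is at most the level of 3 counts in either sample, and was indistinguishable from OSW at this depth. Its controls had 227, 256, 262 and 193 CPM. ENSCAFG00000000819 had 29 and 47 counts, or 8.97 CPM (interval 6.01 to 12.9) and 13.2 CPM (9.73 to 17.6), 2.22% and 3.27% of the control median. It was thus low but above the 0 to 0.924 CPM of OSW. The SD of the log2 ratio to controls over the 9 genes was 2.55 and 2.69 in the CL-1 samples and 2.496 in GL-1, the widest of all samples, against 0.121 to 0.320 in the controls.

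**Figure D3:**
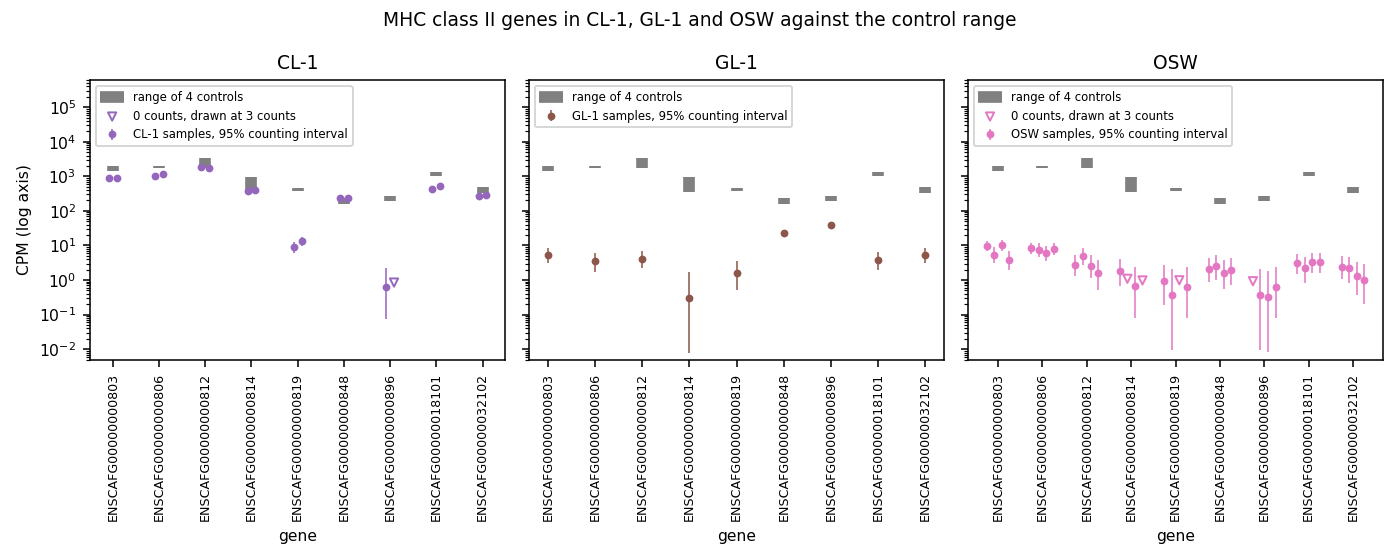
CPM on a log axis of the 9 genes in CL-1 (2 samples), GL-1 (1) and OSW (4), with exact 95% counting intervals, grey bars for the range of the 4 controls and open triangles at the level of 3 counts for samples with 0 counts. CL-1 leaves the control range widely for ENSCAFG00000000819 and ENSCAFG00000000896, and GL-1 comes nearest to it for ENSCAFG00000000848 and ENSCAFG00000000896.

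OSW and CL-1, both labelled as T-cell lines, differed by a median log2 fold-change of -7.18 over the 9 genes (OSW minus CL-1), with a range from -9.25 for ENSCAFG00000000812 to 0.14 for ENSCAFG00000000896, where both lines were near 0 and the SE was 2.42. The median of all genes in this contrast was 0.02. The difference between the lines was part of how the genes were described and was not tested.

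In the probable T-cell lymphomas the genes were lower than in controls. All 9 were below every control in all 4 samples, beside 13.5% of all genes tested, and the count was 9 in the 3 intestinal lymphomas alone, beside 16.8%. Without control replicate 4 both counts were again 9, beside 15.5% and 19.3%. ENSCAFG00000000803 had 379.8, 219 and 574 CPM in the intestinal lymphomas and 467 CPM in the T-cell lymphoma, so the T-cell lymphoma lay within their range. ENSCAFG00000018101 had 202, 128 and 312 CPM in the intestinal lymphomas and 330.0 CPM in the T-cell lymphoma (interval 311 to 349.8), just above them. ENSCAFG00000032102 had 115, 49.4 and 89.6 CPM in the intestinal lymphomas and 58.4 CPM in the T-cell lymphoma, again within their range.

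The 2 genes that CL-1 lost were low in the intestinal lymphomas as well. ENSCAFG00000000819 had 7.31, 14.8 and 6.21 CPM in the intestinal lymphomas, 1.54 to 3.66% of the control median, and 27.0 CPM in the T-cell lymphoma (interval 21.8 to 33.1), or 6.69%. ENSCAFG00000000896 had 3.38, 3.70 and 4.88 CPM in the intestinal lymphomas, from 12, 8 and 11 counts. In intestinal lymphoma 2, ENSCAFG00000000814 was also low, at 24.0 CPM or 3.03% of the control median, under the 3.66% of ENSCAFG00000000819. In the T-cell lymphoma ENSCAFG00000000896 had 154 CPM (interval 142 to 168), which was 64.0% of the control median and the highest share of any of the 9 genes in that sample. The T-cell lymphoma and the intestinal lymphomas thus differed for this gene by far more than the spread of the 3 intestinal samples, although 1 sample gives no test. Intestinal lymphoma 2 had the lowest level of all 4 samples for 7 of the 9 genes, and the median of its percentages was 7.77%, against 18.1% and 18.4% in the other 2.

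CLBL-1 and CLBL-1M kept all 9 genes. Of these, 2 were below every control in CLBL-1 (beside 31.9% of all genes tested) and in CLBL-1M (beside 30.4%), namely ENSCAFG00000000819 and ENSCAFG00000000896. Above every control were 3 in CLBL-1 (beside 25.1%) and 1 in CLBL-1M (beside 23.4%). Without control replicate 4 these counts were 4 below in CLBL-1 (beside 36.3%) and 4 in CLBL-1M (beside 34.5%), and 3 above in CLBL-1 (beside 29.3%) and 2 in CLBL-1M (beside 27.7%). ENSCAFG00000032102 had 851, 777, 882, 612 and 703 CPM in CLBL-1, against 332, 418, 500.3 and 334 CPM in the controls. In CLBL-1M it had 599, 935, 715, 867 and 545 CPM, so that all 10 samples were above all controls. ENSCAFG00000000848 had 257 to 315 CPM in CLBL-1 and 233.0 to 339 CPM in CLBL-1M, and the lowest CLBL-1M sample was just under the highest control at 233.4 CPM.

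ENSCAFG00000000896 had 129.99, 114, 144, 80.8 and 100.3 CPM in CLBL-1 and 93.9, 188, 133, 115 and 101 CPM in CLBL-1M, all below the lowest control at 193 CPM. ENSCAFG00000000819 had 173 to 205 CPM in CLBL-1 and 129 to 287 CPM in CLBL-1M, below the lowest control at 374 CPM. Unlike in CL-1, both genes remained well detected here.

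CLBL-1M and CLBL-1 were compared with each other directly, a contrast that the choice of genes did not use. None of the 9 genes passed an adjusted p of 1e-05 in edgeR's quasi-likelihood test, and the count was also 0 at an unadjusted p of 0.05 and with DESeq2. Of all genes tested, 0% passed 1e-05 and 1.33% had an unadjusted p under 0.05. The log2 differences ran from -0.08 for ENSCAFG00000000803 (95% interval -0.69 to 0.54) to 0.15 for ENSCAFG00000000896 (-1.06 to 1.35). The intervals were widest for ENSCAFG00000000819 (-1.50 to 1.36).

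The 12 B-cell lymphomas spread on both sides of the controls. None of the 9 genes was below every control in all 12 samples, beside 11.2% of all genes, nor above every control, beside 7.67%. Without control replicate 4 the count below was 1, beside 13.1%. ENSCAFG00000000803 ranged from 648 to 2869 CPM with a median of 1873, and ENSCAFG00000000806 from 666 to 2428 CPM with a median of 1587. ENSCAFG00000000814 ranged from 114 to 690 CPM with a median of 376, which was 47.5% of the control median and the lowest share of the 9 genes. Its highest B-cell lymphoma was above control replicate 4 at 362 CPM and below the other 3 controls.

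Replicates 3, 5, 10 and 12 were the 4 lowest for each of the 9 genes, with medians over the genes of 37.2%, 35.8%, 53.7% and 48.7% of the control median. The other 8 had medians of 78.7 to 135%. The gap was widest for ENSCAFG00000000819, with 6.29, 7.80, 30.8 and 41.5 CPM in those 4 samples and 192 to 969.7 CPM in the other 8. It was narrow for ENSCAFG00000018101, where replicates 5, 10 and 12 had 863, 831 and 893 CPM and replicate 9 of the other 8 had 1027 CPM. The gap was also narrow for ENSCAFG00000032102, from 327 CPM in replicate 12 to 352 CPM in replicate 7. For ENSCAFG00000000848 it ran from 114 CPM in replicate 10 to 126 CPM in replicate 7. ENSCAFG00000000812 fell to 312 CPM in replicate 3, 10.7% of the control median, while the other 11 samples had 849 to 3960 CPM. The flow cytometry field of the labels differed from the title in 3 of the 4 low samples. It also did so in replicates 1 and 6, which were among the 8.

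**Figure D4:**
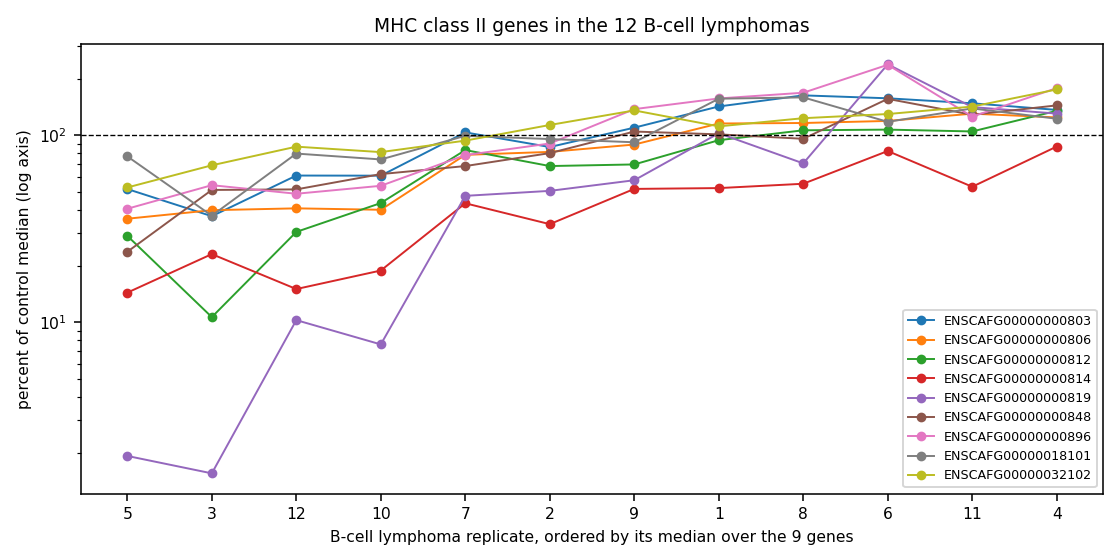
Level of each of the 9 genes as percent of its control median, on a log axis, in the 12 B-cell lymphomas, ordered by their median over the genes, with a dashed line at the control median. The line of ENSCAFG00000000819 falls to 1.56% and 1.93% in replicates 3 and 5, and the line of ENSCAFG00000000814 stays under 100 percent in all 12 samples.

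The B-cell lymphomas were compared directly with the CLBL lines, as the mean of CLBL-1 and CLBL-1M. The lymphomas came from different dogs, while all CLBL samples trace to 1 tumor, since CLBL-1M was re-derived from CLBL-1. On the CLBL side, p-values and intervals thus measure the spread of samples of 1 source, not of independent lines. None of the 9 genes passed an adjusted p of 1e-05 in edgeR's quasi-likelihood test, while 22.6% of all genes tested did. At an adjusted p of 0.05 the count was 3 of 9, beside 64.3% of all genes, at an unadjusted p under 0.05 it was 4, beside 67.1%, and DESeq2 called 1 gene at 1e-05. The median log2 difference over the 9 genes was -0.22, beside 0.23 over all genes.

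ENSCAFG00000032102 had the smallest adjusted p of the 9 genes and was 0.86 lower on the log2 scale in the B-cell lymphomas (SE 0.167, 95% interval -1.19 to -0.53, edgeR adjusted p = 4.2e-05). Its levels were 198 to 661 CPM in the B-cell lymphomas and 545 to 935 CPM in the 10 CLBL samples, so the groups overlapped. ENSCAFG00000000848 was at -0.79 (SE 0.201, edgeR adjusted p = 0.00103) with 43.9 to 289 CPM against 233.0 to 339 CPM. ENSCAFG00000000896 had the opposite sign, at 1.21 (SE 0.424, interval 0.37 to 2.04, edgeR adjusted p = 0.0138), with 97.7 to 575 CPM against 80.8 to 188 CPM. ENSCAFG00000018101 was at -0.39 (SE 0.173, edgeR adjusted p = 0.0506). For the other 5 genes the 95% intervals included 0, and the widest of them was that of ENSCAFG00000000819, from -0.34 to 1.61.

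**Figure D5:**
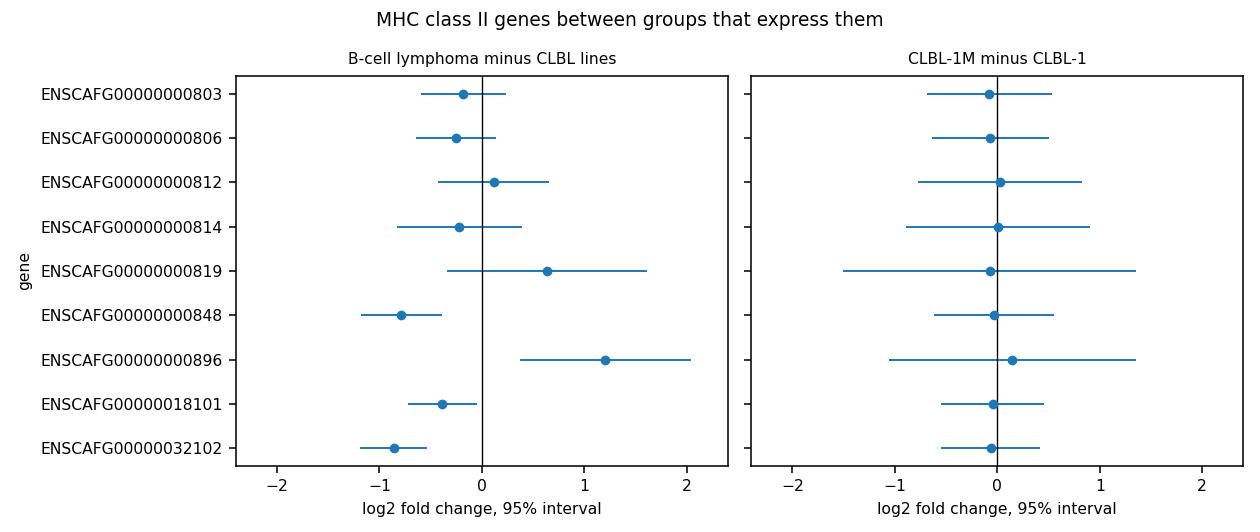
Log2 fold-change with 95% interval of each of the 9 genes for B-cell lymphomas minus CLBL lines (left) and CLBL-1M minus CLBL-1 (right). On the left the intervals of ENSCAFG00000032102, ENSCAFG00000000848 and ENSCAFG00000018101 lie below 0 and that of ENSCAFG00000000896 above it, and on the right every interval spans 0.

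How tightly the genes varied together was examined within the 12 B-cell lymphomas, the only group with 6 or more samples. For ENSCAFG00000000819 the sets of 4 and 8 given above lay farthest apart, so its pairs are given only within the 8. The same 4 samples were also the lowest for each of the other 8 genes. Correlations and permutation p over the 12 samples therefore include the difference between the sets and do not measure variation within them. For the 28 pairs of the other 8 genes, Pearson's r of log2(CPM + 1) over the 12 samples had a median of 0.885 (range 0.629 to 0.961), and Spearman's rho a median of 0.888 (0.692 to 0.965). The largest two-sided permutation p of the 28, from 100000 resamples, was 0.0303 for r and 0.016 for rho, the same after Benjamini-Hochberg adjustment over the 28 pairs. Without the 2 samples farthest from the median of the first gene, r was 0.676 to 0.967, with a largest permutation p of 0.0298. The genes were chosen from 1 list of related function, and samples share depth and scaling across genes.

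Within the 8 samples with ENSCAFG00000000819 above 100 CPM, the median r of all 36 pairs was 0.734 (0.161 to 0.915) and the median rho 0.714 (0.0238 to 0.976). The 8 samples were chosen on the level of 1 of the genes after the data were seen, which narrows its range and lowers r by construction, so these values are a description only. The weakest pair was ENSCAFG00000018101 with ENSCAFG00000032102 (r = 0.161), and the strongest ENSCAFG00000000819 with ENSCAFG00000000848 (r = 0.915).

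Across all 37 samples, which fall into groups and so give a description only, each gene was compared with the mean of the other 8. Pearson's r was 0.76 for ENSCAFG00000000896, 0.895 for ENSCAFG00000000819 and 0.939 for ENSCAFG00000000848, and 0.964 to 0.984 for the other 6. The median r of all genes tested with the mean of the 9 was 0.00337. The steadiest pair in the 32 samples outside OSW and GL-1 was ENSCAFG00000000803 with ENSCAFG00000000806, whose ratio stayed between 0.800 and 1.46 (median 1.07). It was lowest in CL-1 replicate 2 and highest in CLBL-1M replicate 2. The loosest pair was ENSCAFG00000000848 with ENSCAFG00000000896, with ratios from 0.185 in the T-cell lymphoma to 377 in CL-1 replicate 1, over the 31 samples with ENSCAFG00000000896 above 0.

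Of all other genes tested, the 5 whose log2(CPM + 1) ran most like the mean of the 9 over the 37 samples were ENSCAFG00000012183 (r = 0.947), ENSCAFG00000000375 (0.912), ENSCAFG00000018091 (0.906), ENSCAFG00000002061 (0.903) and ENSCAFG00000017115 (0.9), a description over samples that fall into groups. ENSCAFG00000012183 had a median of 175 CPM in controls, 276 in B-cell lymphomas, 408 in CLBL-1, 35.8 in probable T-cell lymphomas, 19.8 in CL-1, 0.318 in OSW and 0 counts in GL-1. ENSCAFG00000000375 was at 73.7 CPM in controls and 72.6 CPM in CL-1, against 0.505 CPM in OSW and 4.999 CPM in GL-1.

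The rest of the pathway was followed in lists the study gave by identifier. These lists, too, came from genes it had called on these samples, so their direction is not independent evidence. Of 13 other genes for processing and presentation of peptide antigen, edgeR's quasi-likelihood test called 7 in OSW against controls (12.3% of all genes passed), all lower, and 5 in CL-1 (8.77% of all genes), all lower. It called 2 each in CLBL-1 (16.7%) and CLBL-1M (16.8%), 1 for GL-1 (0.904%) and 1 for the probable T-cell lymphomas (1.91%), all lower, and 0 in the B-cell lymphomas (5.53%), where 9 had an unadjusted p under 0.05 (53.2% of all genes) and DESeq2 called 1. Leaving out 1 library moved these small counts: OSW kept 6 or more, CL-1 had 2 without its replicate 1 and 1 without its replicate 2, and the counts of 1 or 2 in the other groups fell to 0 without at least 1 library of the group or the controls. The median log2 fold-change of the 13 was -2.65 in OSW and -3.06 in CL-1, beside -0.08 and -0.23 over all genes. Between OSW and CL-1 none of the 13 passed in edgeR (4.08% of all genes did) and 6 had an unadjusted p under 0.05 (39.9% of all genes). The log2 differences of the 13 went both ways, from -3.04 to 5.17, with a median of 0.000915.

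Of the 13, 3 stand under the MHC protein complex but not under class II, and these were called lower in both OSW and CL-1. ENSCAFG00000013633, chosen after its values were seen, had 441 to 788 CPM in OSW and 369 and 415 CPM in CL-1, against 1730 to 4166 CPM in controls. The same gene was called lower in CLBL-1, at 750 to 1463 CPM, and in CLBL-1M, at 630 to 1734 CPM. Of all genes tested, 16.7% and 16.8% passed there. GL-1 had 794 CPM of it. ENSCAFG00000012086, chosen in the same way, had 0.648 to 1.31 CPM in OSW, 5.07 and 10.5 CPM in CL-1 and 5.62 CPM in GL-1, against 254 to 474 CPM in controls.

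Of 20 genes of B cell receptor signaling, the pathway by which B cells sense antigen, 11 were called in CL-1 (10 lower, 1 higher), 9 in OSW, 4 in the probable T-cell lymphomas, 3 each in CLBL-1 and CLBL-1M, 2 in GL-1 and 1 in the B-cell lymphomas, and those outside CL-1 were all lower. The shares of all genes passing are those given for the peptide antigen list. Without either CL-1 sample the CL-1 count was 5, without control replicate 1 or 2 the single call in the B-cell lymphomas was lost, and without any 1 control the GL-1 count was 1. The summed level of the 20 genes was 3239 to 3660 CPM in controls, 4498 to 8913 CPM in B-cell lymphomas, 3993 to 5000 CPM in the CLBL lines and 1608 to 4506 CPM in the probable T-cell lymphomas. It was 1931 CPM in GL-1, 887 to 944 CPM in OSW and 688 to 697 CPM in CL-1. In CL-1, most of the sum came from ENSCAFG00000019938, chosen after its values were seen. It had 476 to 495 CPM there, against 81.9 to 116.5 CPM in controls. For 8 of the 9 class II genes, the levels of CL-1 were above those of OSW and GL-1. The part of B cell content in the class II levels was not tested.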

How the data were processed

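Poly-A RNA of 37 canine samples was sequenced as paired-end reads. The authors deposited raw, unscaled counts of each gene, made with HTSeq 0.6.1 on Ensembl genes from BWA alignments to CanFam3.1. Picard and samtools had cleaned these alignments, so the counts hold no marked duplicates. The strand setting of the counting is not given in the sources used here, and reads on more than 1 gene were left out, so genes that overlap or share sequence could lose reads. Samples were grouped by their titles.

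From the counts, 15162 genes were kept whose highest CPM lay above the 40th percentile of genes with at least 1 count, the study's filter without its restriction to protein-coding genes. In R 4.3.3, edgeR 4.0.16 with TMM scaling was used for a joint quasi-likelihood fit of the 37 samples in 8 groups, with Benjamini-Hochberg adjustment over all genes tested and the study's threshold of 1e-05. The SE is the absolute log2 fold-change over the root of F. The fit was checked on simulated counts. Correlations used log2(CPM + 1) and permutation tests. No closest replicate pair agreed within sampling noise (lowest chi-square 1.33 per degree of freedom, CLBL-1 replicates 1 and 3), so none were merged. No label says that replicates were separate cultures, and p-values then measure the spread between these samples, which may be technical. Replicate numbers do not pair samples across groups: the mean correlation of deviations was -0.01 for the same number and 0.00191 for different numbers.

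The genes and lists were chosen with earlier results of these data known. The planned lists of gene symbols and cell type markers could not be used, since the reference table (RefSeq, UU_Cfam_GSD_1.0) paired 0 of the 9 identifiers, so the study's 3 identifier lists took their place after the data were seen. Positions and sequences were not used here. Named genes are the 9 members, the 5 most alike genes, and genes said to be chosen after their values were seen. Alternatives were RLE size factors, DESeq2 1.42.0, no filter or filterByExpr, an adjusted p of 0.05, 9 groups, a replicate block and exchanged CLBL names. Each replicate was also left out, except those of the B-cell lymphomas and GL-1. Added after seeing the data were control replicate 4 alone or left out and the 8 B-cell lymphomas above 100 CPM.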

Additional observations from a re-analysis of the deposited data

Results flagged for a closer look

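Of 45 sets of a gene and a group with 4 or 5 samples, 6 held a sample whose gap to its nearest neighbor was large for the range of the group, by Dixon's criterion, which chance meets in about 1 of 20 groups. In CLBL-1M replicate 2, the shallowest CLBL-1M library with 1980761 gene reads, 4 genes stood above the other 4 samples. ENSCAFG00000000803 had 2852.9 CPM there (next 1973), ENSCAFG00000000814 had 644.13 CPM (next 375), ENSCAFG00000000819 had 286.83 CPM (next 175) and ENSCAFG00000018101 had 1934 CPM (next 1466). The 9 genes together made up 1.10% of the gene reads of that sample and 0.743 to 0.880% of those of the other CLBL-1M samples. Among the 4 probable T-cell lymphomas, ENSCAFG00000000806 was lowest in intestinal lymphoma 2, with 187.56 CPM against 420.03 CPM in the next sample, and ENSCAFG00000000896 was highest in the T-cell lymphoma, with 154.39 CPM against 4.88 CPM in the next.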

How the results depend on the processing

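The median log2 fold-change of the 9 genes kept its sign against controls under all alternatives in OSW, GL-1, CL-1, the probable T-cell lymphomas and the B-cell lymphomas. With RLE size factors it was -0.18 for CLBL-1, -0.24 for CLBL-1M, -8.75 for OSW and -1.08 for CL-1. With DESeq2 it was -0.18, -0.24, -8.77 and -1.08 in the same order, and -8.43 for GL-1. With filterByExpr it was -0.070 for CLBL-1 and -0.14 for CLBL-1M, and against control replicate 4 alone -8.89 for OSW and -0.76 for CL-1. Leaving out 1 replicate at a time gave -0.27 to -0.10 for the B-cell lymphomas, -2.88 to -2.10 for the probable T-cell lymphomas, 0.02 to 0.08 for CLBL-1, -0.05 to 0.01 for CLBL-1M, -8.28 to -8.17 for GL-1, -8.63 to -8.47 for OSW and -1.06 to -0.76 for CL-1. No B-cell lymphoma and no GL-1 sample was left out, so the ranges of these groups come from leaving out controls. The weight of single B-cell lymphomas in the fit was not tested. The count of the 9 called between CLBL-1M and CLBL-1 stayed at 0, and that between B-cell lymphomas and CLBL lines was 0 to 0 without 1 control or CLBL sample, 3 at an adjusted p of 0.05 (beside 64.3% of all genes) and 1 with DESeq2. The median r of 0.885 over 28 pairs in the 12 B-cell lymphomas was 0.723 for the same pairs in the 8 samples, whose choice narrows the range of levels. Of 1251 single fold-changes under alternatives, 109 moved by more than the replicate spread, 82 of them lower, and 9 of these took the other sign.

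Of the peptide antigen list, RLE size factors gave 1 call in the B-cell lymphomas, 2 for the probable T-cell lymphomas, 4 for CLBL-1 and 5 for CLBL-1M. DESeq2 gave 1, 3, 7 and 7, with 2 for GL-1, 12 for OSW and 9 for CL-1. An adjusted p of 0.05 gave 7, 7, 9 and 9, with 7 for GL-1, 13 for OSW and 12 for CL-1, beside 46.9%, 37.4%, 60.2%, 60%, 27.8%, 56.9% and 52.8% of all genes. No filter gave 1 for CLBL-1, filterByExpr 4 for CLBL-1M, and 9 groups 0 for the intestinal lymphomas, fitted apart from the T-cell lymphoma, and 4 for CLBL-1M. Without 1 replicate the counts were 0 to 0 for the B-cell lymphomas, 0 to 1 for the probable T-cell lymphomas, 0 to 2 for CLBL-1 and in CLBL-1M, 0 to 1 for GL-1, 6 to 6 for OSW and 1 to 5 for CL-1. For this list and the next, no B-cell lymphoma or GL-1 sample was left out. Of the B cell receptor list, RLE size factors gave 1 call in GL-1, DESeq2 2 for the B-cell lymphomas and 4 for GL-1, and 9 groups 2 for the B-cell lymphomas. An adjusted p of 0.05 gave 11 for the B-cell lymphomas, 8 for the probable T-cell lymphomas, 8 for CLBL-1, 7 for CLBL-1M, 8 for GL-1, 15 for OSW and 20 for CL-1, beside the same shares of all genes. Without 1 replicate they were 0 to 1, 4 to 5, 2 to 3, 3 to 3, 1 to 1, 6 to 9 and 5 to 10 in that order. The cause of these changes was not tested. A lone sample left in a group is assumed to vary like the other groups.

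The replicate number as a block, which the design does not pair, gave 0 calls of the B cell receptor list in the B-cell lymphomas and in GL-1, and 0 calls of the peptide antigen list in CLBL-1, CLBL-1M and GL-1. It left the calls of the 9 genes at 0 in both direct contrasts. Depth limits genes under 3 counts in OSW, GL-1 and CL-1, whose levels could not be ordered.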
